A study of Mus musculus with 7 samples.

Results

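Metallothioneins and the membrane carriers that move zinc across cell membranes were examined in the liver of mice given lipopolysaccharide (LPS), a component of the outer membrane of Gram-negative bacteria. The genes were taken by name, and the rule for them sets no threshold on a measured value. They were the metallothioneins Mt1 and Mt2, the importers Slc39a14, Slc39a4, Slc39a8 and Slc39a5, the exporters Slc30a1 and Slc30a10, and the metal-sensing transcription factor Mtf1. They make up 9 of the 56691 genes in the count table, and all 9 had enough counts to be tested.

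Liver RNA was sequenced in 4 control mice and 3 LPS-treated mice, out of 6 mice kept per group in the study. All were male C57BL/6J mice, an inbred strain, bought at an age of 8 weeks and housed for 2 weeks. LPS-treated mice received LPS intraperitoneally at 10 mg/kg and were killed 24 h afterwards. The treatment of the control mice is not described further in the sources used here, and mice given sulforaphane were not analysed here. The p-values rest on the labels, which list each sample as a separate animal of its group.

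Metallothioneins are small cysteine-rich proteins that bind zinc and copper in the cytosol and buffer the free metal. Carriers of the Slc39a family bring zinc into the cytosol from outside the cell or from organelles, and carriers of the Slc30a family move it the other way. Mtf1 senses zinc and binds metal response elements in the promoters of metallothionein genes and of Slc30a1, and liver zinc uptake and metallothionein synthesis are known to increase in the acute phase response.

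Total counts per library were 14991022, 15096573, 15721944 and 18584140 for control replicates 1 to 4. For LPS replicates 1 to 3 they were 20500391, 17095607 and 17821331. Levels are given in CPM, the counts of a gene relative to the library size after scaling with TMM factors. A floor of 3 counts corresponded to between 0.138 and 0.212 CPM in a single library. Intervals and floors cover counting error only and leave out differences between mice. They treat each read as a separate molecule. The reads carried no molecular identifiers, so copies of a molecule cannot be told from separate ones, and the intervals may be too narrow even for counting error.

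Some libraries stood apart from the rest. LPS replicates 2 and 3 were the closest pair of samples within a group. Over 1729 well-counted genes their log2 ratio had an SD of 0.10, and the 8 remaining pairs had SDs from 0.29 to 0.58. Their variance was 3.80 times that of counting noise, which does not show whether they came from separate animals. They were kept as separate samples because the labels list them so, and the results with both summed into 1 sample are given where they matter. Mitochondrial genes took 23.7%, 14.6%, 7.48% and 8.96% of the counts in control replicates 1 to 4 and 6.45%, 3.83% and 3.94% in LPS replicates 1 to 3. Control replicate 1 therefore carried the highest mitochondrial share.

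The liver label was checked against markers of hepatocytes, the main cell type of the liver. All 9 hepatocyte markers found by symbol were detected in every sample, and Alb was the most abundant of them. Their summed level was 65834, 63670, 88850 and 75565 CPM in control replicates 1 to 4 and 41592, 45726 and 46053 CPM in LPS replicates 1 to 3. Of these 9 markers, 1 was higher and 4 were lower in LPS-treated mice, against 13.3% and 13.0% of all genes tested. Calls were made at an adjusted p below 0.05 in edgeR's quasi-likelihood test with Benjamini-Hochberg adjustment. In bulk samples, fewer cells of a type and less RNA per cell cannot be told apart.

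Markers of other cells were counted as higher or lower at an adjusted p below 0.05 in edgeR's quasi-likelihood test with Benjamini-Hochberg adjustment, by which 13.3% of all genes tested were higher in LPS-treated mice and 13.0% were lower. The summed level of 10 neutrophil markers was 5.23, 4.10, 1.95 and 3.43 CPM in control replicates 1 to 4 and 222, 162 and 160 CPM in LPS replicates 1 to 3. All 8 that could be tested were higher in LPS-treated mice, and S100a9 was the most abundant there. Ngp had 0 counts in each control mouse, and Mmp8 and Retnlg had 1 count in a single control mouse each. S100a8, Cxcr2 and Mmp9 also had few counts in control mice, at most 14, 11 and 12 in a single mouse. All these genes passed the count filter only through the LPS-treated mice, so a rise was the only call they could receive. Of the tested neutrophil markers, only Csf3r and S100a9 had enough counts in control mice to be called in either direction. Ly6g, a defining marker of neutrophils, had 0 counts in each control mouse and 7, 0 and 1 counts in LPS replicates 1 to 3. The summed level of 10 Kupffer cell and macrophage markers was 138, 201, 187 and 122 CPM in control replicates 1 to 4. It was 696 CPM in LPS replicate 1, where Marco was the most abundant at 409 CPM, and 185 and 188 CPM in LPS replicates 2 and 3, where Lyz2 was. Among those 10 markers, 4 were higher and 1 was lower. Of 5 erythroid markers 4 were lower, with sums of 307, 183, 232 and 179 CPM in control replicates 1 to 4 and 136, 53.8 and 53.7 CPM in LPS replicates 1 to 3. Markers of endothelium had 2 higher and 2 lower of 8, those of stellate cells 1 higher and 2 lower of 8, those of cholangiocytes 1 higher of 6 and those of lymphocytes 1 lower of 4 tested, counts too small to set apart from the shares over all genes. Of 6 pancreas markers, 4 had no counts in any sample, and Cela1 was the 1 that could be tested and was lower. The part of these cells in the results for metallothioneins and zinc transporters was not tested.

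To explore how zinc handling genes differed between the groups, LPS-treated mice were compared with control mice. Mt1, Mt2 and Slc39a14 rose strongly and Slc39a8 fell, whereas the other 5 genes did not pass the test. Genes were called at an adjusted p below 0.05 in edgeR's quasi-likelihood test with Benjamini-Hochberg adjustment over all 13683 genes tested. By this rule 3 of the 9 genes were higher in LPS-treated mice, where 13.3% of all genes tested were, and 1 was lower, where 13.0% of all genes tested were. With a change of over 2-fold required as well, Mt1, Mt2 and Slc39a14 were higher, against 7.81% of all genes tested, and no gene of the 9 was lower, against 7.31%, the lowest log2 fold change being -0.59. The single fall is close to the share over all genes and says nothing particular about the 9 genes. The 9 genes were chosen with earlier results of these data known, so their counts beside these shares are no independent test. Their median log2 fold change was 0.30, and that of all genes tested was -0.01. With LPS replicates 2 and 3 summed into 1 sample, 3 of the 9 genes were again higher and 1 lower, beside 1348 higher and 1195 lower of 14228 genes tested. Without LPS replicate 1, Slc39a4 passed as well and 4 were higher, while the fall of Slc39a8 no longer passed, beside 1585 higher and 1550 lower of 13975 genes tested.

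The groups did not overlap in 6 of the 9 genes. All 3 LPS-treated mice lay above all 4 control mice for Mt1, Mt2, Slc39a14 and Mtf1, which makes 4 genes, against 18.1% of all genes tested. All LPS-treated mice lay below all control mice for Slc39a8 and Slc30a10, which makes 2 genes, against 17.4% of all genes tested. Calls over all genes numbered 1824 higher and 1773 lower with TMM factors, and 1350 higher and 2055 lower when total counts were used without a scaling factor.

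**Figure D1:**
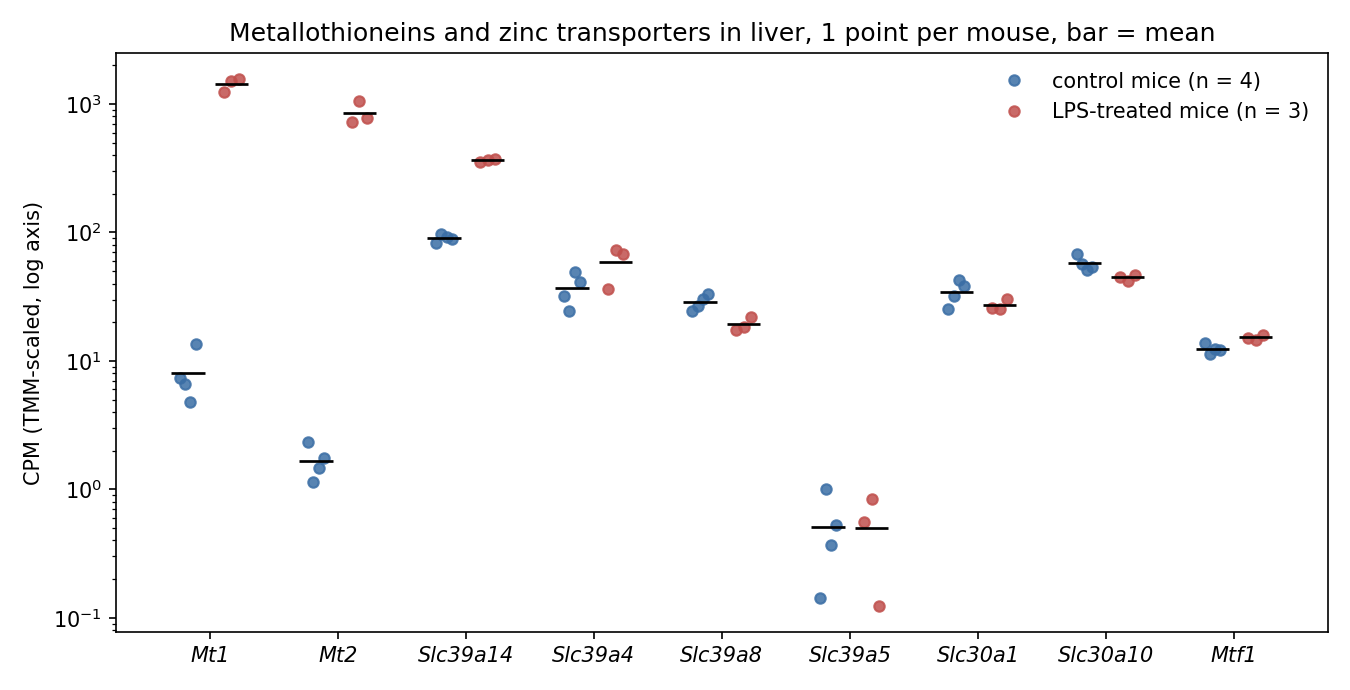
CPM of each of the 9 genes (log axis) in 4 control mice and 3 LPS-treated mice, with 1 point per mouse and a bar at the group mean. Mt1 and Mt2 stood at about 1440 and 851 CPM on average in LPS-treated mice and below 14 CPM in every control mouse, and the groups of Slc39a4, Slc39a5 and Slc30a1 overlapped.

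Mt1 (ENSMUSG00000031765) was low in control liver. It was measured at 7.35, 6.62, 4.82 and 13.5 CPM in control replicates 1 to 4, from 104, 105, 79 and 279 counts. In LPS replicates 1 to 3 it was measured at 1243, 1521 and 1558 CPM, from 26996, 23630 and 25055 counts. Every LPS-treated mouse was far above every control mouse, and control replicate 4 was the highest of its group. Control mice averaged 8.07 ± 3.76 CPM (SD, n = 4) and LPS-treated mice 1440 ± 172 CPM (SD, n = 3). Mt1 rose by 7.47 ± 0.33 (SE) on the log2 scale, about 177-fold, with an adjusted p of 1.26e-08 in edgeR's quasi-likelihood test with Benjamini-Hochberg adjustment. It ranked at number 43 of the 13683 genes by the size of the rise.

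Mt2 (ENSMUSG00000031762), the partner of Mt1 in the liver, started lower and rose further on the log2 scale. It was measured at 2.33, 1.13, 1.46 and 1.74 CPM in control replicates 1 to 4, from 33, 18, 24 and 36 counts. In LPS replicates 1 to 3 it reached 722, 1053 and 778 CPM, from 15679, 16359 and 12515 counts. The groups did not overlap, and LPS replicate 2 was the highest. Control mice averaged 1.67 ± 0.51 CPM (SD, n = 4) and LPS-treated mice 851 ± 177 CPM (SD, n = 3). Mt2 rose by 8.995 ± 0.264 (SE) on the log2 scale, about 510-fold, with an adjusted p of 2.81e-10 in edgeR's quasi-likelihood test with Benjamini-Hochberg adjustment. It ranked at number 14 by the size of the rise, and its fold rests on at most 36 counts per control mouse.

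Mt1 and Mt2 together made up 0.000655% to 0.00169% of the library in control mice, and 0.208% to 0.234% after LPS. Their summed level averaged 9.74 ± 3.91 CPM (SD, n = 4) in control mice and 2291 ± 307 CPM (SD, n = 3) in LPS-treated mice, which is 235-fold. The other metallothionein genes of the mouse were at the floor of detection. Mt3, known from the brain, had 0 counts in each control mouse and 2, 1 and 0 counts in LPS replicates 1 to 3, and Mt4, known from squamous epithelium, had 0 counts in all samples.

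The balance between the metallothioneins also differed between groups. The share of Mt2 in the summed Mt1 and Mt2 counts needs no scaling between libraries. It was 24.1% in control replicate 1, with an exact Clopper-Pearson 95% interval from 17.2% to 32.1%, and 14.6% (8.91% to 22.1%) in control replicate 2. It was 23.3% (15.5% to 32.7%) in control replicate 3 and 11.4% (8.13% to 15.5%) in control replicate 4. LPS replicates 1 to 3 had shares of 36.7% (36.3% to 37.2%), 40.9% (40.4% to 41.4%) and 33.3% (32.8% to 33.8%). Every LPS-treated mouse had a larger share of Mt2 than every control mouse, and the intervals were wide in control mice because so few reads were counted there. The mean share was 18.4 ± 6.3% (SD, n = 4) in control mice and 37.0 ± 3.8% (SD, n = 3) in LPS-treated mice, a difference of 18.6 percentage points. A two-sided exact permutation test over the 35 splits gave p = 0.0286, the smallest that 4 against 3 samples allow. With LPS replicates 2 and 3 counted as 1 sample, the exact p was 0.0667, again the smallest possible.

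**Figure D2:**
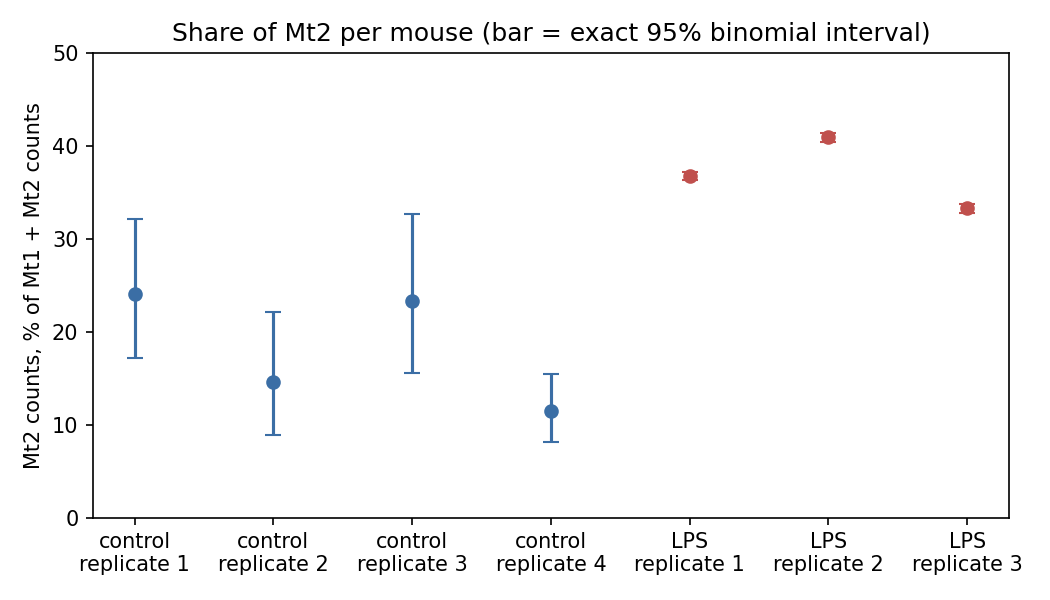
Share of Mt2 in the summed Mt1 and Mt2 counts (percent) in each mouse, with exact 95% binomial intervals as bars. The control mice lie between 11.4% and 24.1%, and the LPS-treated mice between 33.3% and 40.9%.

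Mt1 and Mt2 are related genes, and how reads that fit both were counted is not given in the sources used here. The longest annotated transcripts of Mt1 and Mt2 in GENCODE M21 had 1085 and 511 bases. The longest run of bases they had in common was 20.

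Of the 4 importers among the 9 genes, Slc39a14 (ENSMUSG00000022094) was the one that rose. Its protein carries zinc, and also manganese and iron not bound to transferrin, into hepatocytes. The values of Slc39a14 were 82.5, 97.6, 91.9 and 88.6 CPM in control replicates 1 to 4 and 352, 367 and 371 CPM in LPS replicates 1 to 3. The LPS-treated mice lay close together and all above the control mice. Control mice averaged 90.2 ± 6.3 CPM (SD, n = 4) and LPS-treated mice 363 ± 10 CPM (SD, n = 3). Slc39a14 rose by 2.01 ± 0.13 (SE) on the log2 scale, about 4.03-fold, with an adjusted p of 3.23e-07 in edgeR's quasi-likelihood test with Benjamini-Hochberg adjustment. It ranked at number 520 by the size of the rise.

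Slc39a8 (ENSMUSG00000053897), a carrier of zinc and manganese from the same branch of the family, moved the other way. Its level was 24.7, 26.8, 30.6 and 33.3 CPM in control replicates 1 to 4 and 17.4, 18.3 and 22.0 CPM in LPS replicates 1 to 3. The groups did not overlap, but the gap between the lowest control mouse and the highest LPS-treated mouse was small. Slc39a8 fell by 0.59 on the log2 scale with an SE of 0.16 and an adjusted p of 0.0173 in edgeR's quasi-likelihood test with Benjamini-Hochberg adjustment. This call depended on single mice. Without LPS replicate 1 the log2 fold change was -0.51 and the adjusted p in the same test 0.0707. Without LPS replicate 2 they were -0.55 and 0.083, so the fall stayed about as large where the call was lost. Over the 18 alternatives tried the adjusted p lay between 0.00931 and 0.083.

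Slc39a4 (ENSMUSG00000063354), the importer best known for zinc uptake in the intestine, did not pass the test. It was measured at 32.3, 24.6, 49.4 and 41.1 CPM in control replicates 1 to 4 and at 36.0, 72.4 and 68.2 CPM in LPS replicates 1 to 3. LPS replicates 2 and 3 lay above all control mice, whereas LPS replicate 1 lay among them. LPS replicate 1 is also the library with 696 CPM of summed macrophage markers, and the relation between the 2 was not tested. The log2 fold change of Slc39a4 was 0.67 ± 0.26 (SE), with an adjusted p of 0.075 in edgeR's quasi-likelihood test with Benjamini-Hochberg adjustment. Without LPS replicate 1 the log2 fold change was 0.93 and the adjusted p in the same test 0.0132, and without control replicate 3 the adjusted p was 0.0265. The fit without LPS replicate 1 rests on LPS replicates 2 and 3, and with these summed into 1 sample beside LPS replicate 1 the log2 fold change was 0.54 and the adjusted p 0.255 in the same test. DESeq2 gave an adjusted p of 0.0496, and edgeR without a filter on low counts gave 0.000956. Over all alternatives the adjusted p of Slc39a4 lay between 0.000956 and 0.282.

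Slc39a5 (ENSMUSG00000039878), an importer of pancreas, intestine and liver, was near the limit of detection. It had 2, 16, 6 and 11 counts in control replicates 1 to 4 and 12, 13 and 2 counts in LPS replicates 1 to 3. The groups overlapped fully, at 0.512 ± 0.368 CPM (SD, n = 4) and 0.504 ± 0.359 CPM (SD, n = 3). The log2 fold change was -0.03 with an SE of 0.78, and its sign changed between alternatives, so that no difference was detectable at this depth.

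Neither exporter passed the test. Slc30a1 (ENSMUSG00000037434), which moves zinc out through the plasma membrane, was measured at 25.6, 32.1, 42.7 and 38.0 CPM in control replicates 1 to 4 and at 25.8, 25.4 and 30.5 CPM in LPS replicates 1 to 3. Control replicate 1 lay among the LPS-treated mice and the other control mice above them. The log2 fold change was -0.35 ± 0.18 (SE), with an adjusted p of 0.181 in edgeR's quasi-likelihood test with Benjamini-Hochberg adjustment. Without control replicate 1, the library with the highest mitochondrial share, the log2 fold change was -0.47 and the adjusted p in the same test 0.0458. With mitochondrial genes left out of the counts they were -0.36 and 0.164. Over all alternatives the adjusted p of Slc30a1 lay between 0.0458 and 0.41.

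Slc30a10 (ENSMUSG00000026614) belongs to the zinc exporter family by sequence and is known for the export of manganese from hepatocytes. Its transcripts were measured at 67.8, 57.2, 51.5 and 54.3 CPM in control replicates 1 to 4 and at 45.3, 42.2 and 46.3 CPM in LPS replicates 1 to 3. All LPS-treated mice lay below all control mice. The log2 fold change was -0.37 ± 0.14 (SE), with an adjusted p of 0.0725 in edgeR's quasi-likelihood test with Benjamini-Hochberg adjustment. The adjusted p in the same test was 0.0407 without control replicate 3 and 0.0404 without a scaling factor, and over all alternatives it lay between 0.0404 and 0.249.

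Mtf1 (ENSMUSG00000028890) was measured at 13.8, 11.3, 12.4 and 12.2 CPM in control replicates 1 to 4 and at 15.2, 14.5 and 16.0 CPM in LPS replicates 1 to 3. The groups did not overlap, but the distance was small. The log2 fold change of Mtf1 was 0.30 ± 0.16 (SE), with an adjusted p of 0.194 in edgeR's quasi-likelihood test with Benjamini-Hochberg adjustment. It did not pass the test under any of the 18 alternatives, with adjusted p values between 0.158 and 0.515.

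Levels were compared among the 9 genes per kilobase of exon, with lengths from the union of exons in GENCODE M21, an annotation of an earlier genome build than the one used for counting. The union counts every annotated exon, which gave 1.246 kb for Mt1 and 10.55 kb for Slc39a14. A gene whose transcripts in liver are shorter than its union is placed too low, and which transcripts were present was not examined. The order between genes therefore depends on these lengths. By this measure the highest level of the 9 in control mice was that of Slc39a4, at 11.9 ± 3.5 CPM per kb. It was followed by Slc30a10 at 9.88 ± 1.22, Slc39a14 at 8.55 ± 0.60, Slc30a1 at 6.60 ± 1.41 and Mt1 at 6.48 ± 3.02 CPM per kb (SD, n = 4), and neighbours in this order lay within their spread. Slc39a8 at 3.76 ± 0.51 and Mt2 at 2.84 ± 0.86 CPM per kb came next, also within their spread, then Mtf1 at 1.40 ± 0.11 and Slc39a5 at 0.230 ± 0.165 CPM per kb. In LPS-treated mice the metallothioneins led the 9 genes by a wide margin. Mt2 stood at 1447 ± 301 and Mt1 at 1156 ± 138 CPM per kb (SD, n = 3), a difference within the spread of Mt2. Of the other 7, Slc39a14 followed at 34.5 ± 1.0, Slc39a4 at 19.0 ± 6.4 and Slc30a10 at 7.65 ± 0.37 CPM per kb. Slc30a1 at 5.19 ± 0.54, Slc39a8 at 2.51 ± 0.32, Mtf1 at 1.71 ± 0.08 and Slc39a5 at 0.227 ± 0.161 CPM per kb came last, and from Slc39a14 downwards each gene lay further from the next than their SDs combined.

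The remaining genes of both transporter families were taken as lists. Among 10 other Slc39a genes, 9 could be tested, of which 2 were higher and 1 was lower in LPS-treated mice, against 13.3% and 13.0% of all genes tested. Their median log2 fold change was 0.73, and that of all genes tested -0.01. The lower gene, Slc39a2, passed the count filter only through the control mice. Slc39a1, an importer of the plasma membrane, was measured at 42.7, 46.2, 57.4 and 49.8 CPM in control replicates 1 to 4 and at 85.9, 92.5 and 93.6 CPM in LPS replicates 1 to 3. The groups did not overlap. It rose by 0.89 ± 0.14 (SE) on the log2 scale, with an adjusted p of 4.94e-04 in edgeR's quasi-likelihood test with Benjamini-Hochberg adjustment.

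Slc39a13, which releases zinc from vesicles and the Golgi, averaged 4.35 ± 0.78 CPM (SD, n = 4) in control mice and 7.24 ± 1.02 CPM (SD, n = 3) in LPS-treated mice. Its log2 fold change was 0.74 ± 0.24 (SE), with an adjusted p of 0.0428 in edgeR's quasi-likelihood test with Benjamini-Hochberg adjustment. Of the 7 fits that left out 1 mouse, 1 kept this call, that without control replicate 1. The log2 fold change lay between 0.62 and 0.82 in these fits, so the rise stayed about as large where the call was lost. Over all alternatives the adjusted p of Slc39a13 lay between 0.0239 and 0.179. With LPS replicates 2 and 3 summed into 1 sample it was 0.0955, and 5 of the 18 alternatives kept the call. Slc39a2, a further importer of the plasma membrane, had 33, 23, 6 and 23 counts in control replicates 1 to 4 and 4, 0 and 4 counts in LPS replicates 1 to 3. It was low in all LPS-treated mice, and control replicate 3 came close to them. Because it passed the count filter only through the control mice, a fall was the only call it could receive. The fold rests on at most 4 counts per LPS-treated mouse. Slc39a2 fell by 3.09 on the log2 scale with an SE of 0.89 and an adjusted p of 0.0216 in edgeR's quasi-likelihood test with Benjamini-Hochberg adjustment. In the same test its adjusted p was 0.0547 without LPS replicate 1 and 0.0755 without LPS replicate 2, and over the 14 alternatives in which Slc39a2 could be tested it lay between 0.00239 and 0.0755. Slc39a12 had 1 count in LPS replicate 1 and 0 in the other samples.

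Among 8 other Slc30a genes, 5 could be tested, of which 1 was higher, against 13.3% of all genes tested, and the other 4 did not pass, with a median log2 fold change of 0.18. A single call of 5 says little about the family. Slc30a5 carries zinc into the early secretory pathway, where zinc enzymes such as alkaline phosphatases are loaded. It was measured at 29.1, 26.1, 25.3 and 27.1 CPM in control replicates 1 to 4 and at 59.8, 78.6 and 74.5 CPM in LPS replicates 1 to 3. All LPS-treated mice lay above all control mice. Slc30a5 rose by 1.40 ± 0.14 (SE) on the log2 scale, about 2.64-fold, with an adjusted p of 1.23e-05 in edgeR's quasi-likelihood test with Benjamini-Hochberg adjustment. Slc30a2, Slc30a3 and Slc30a8 had too few counts to be tested.

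**Figure D3:**
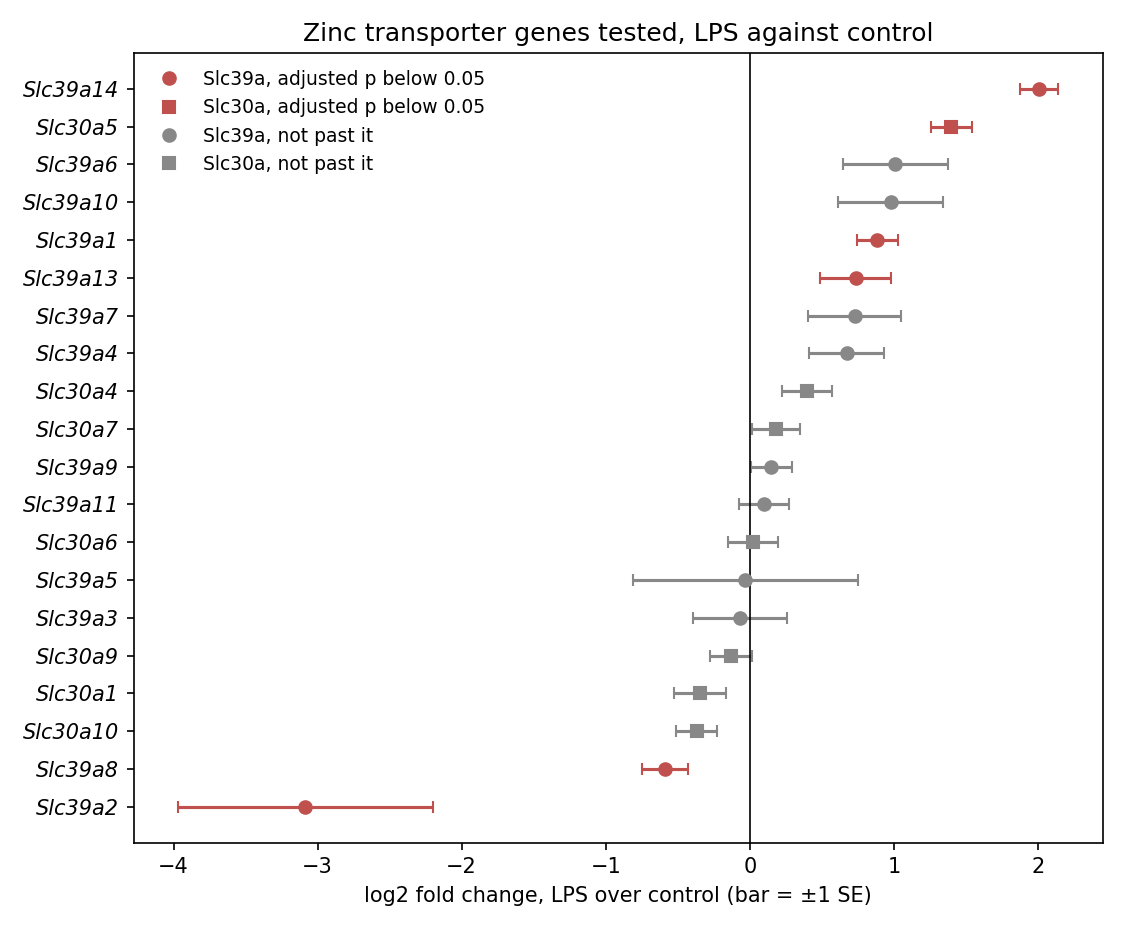
Log2 fold change of LPS-treated over control mice for the Slc39a genes (circles) and Slc30a genes (squares) that could be tested, with bars of 1 SE, and red for an adjusted p below 0.05. Slc39a14 at 2.01 and Slc30a5 at 1.40 have the highest values, and Slc39a2 at -3.09 has the lowest and the widest bar of those in red.

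Because Mt1 and Mt2 rose together, the sequences before their starts were read from RefSeq promoter windows of the build GRCm38.p6. Windows were matched by symbol for 7 of the 9 genes, with 9 windows in all. The start of Mt1 lies 6471 bases after that of Mt2 on the same strand of chromosome 8. The 250 bases before each start were searched on both strands for the core of the metal response element in its A form, TGCACNC, and its G form, TGCGCNC, which cannot match the same bases on 1 strand. At least 1 match of either form was present in 21.4% of all 32851 promoter windows, at least 2 in 5.17% and at least 3 in 1.26%. The sequences of Mt1 (chr8:94178839-94179088, plus strand) and Mt2 (chr8:94172368-94172617, plus strand) are shown because these genes had the highest rises of the 9, with matches in capitals.
Mt1: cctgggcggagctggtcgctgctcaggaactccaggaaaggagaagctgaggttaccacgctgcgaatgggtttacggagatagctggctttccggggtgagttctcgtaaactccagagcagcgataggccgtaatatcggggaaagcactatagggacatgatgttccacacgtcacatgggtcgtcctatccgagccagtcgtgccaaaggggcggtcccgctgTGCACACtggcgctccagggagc
Mt2: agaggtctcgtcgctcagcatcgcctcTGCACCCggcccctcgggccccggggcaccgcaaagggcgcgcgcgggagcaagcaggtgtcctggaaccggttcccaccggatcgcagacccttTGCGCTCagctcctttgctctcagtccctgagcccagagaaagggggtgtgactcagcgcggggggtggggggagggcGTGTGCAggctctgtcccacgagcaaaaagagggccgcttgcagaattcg

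The window of Mt1 had 1 match, from 23 to 17 bases before the start. The number of matches depends on the annotated start, and which start is used in liver was not examined. The window of Mt2 had 3 matches, from 223 to 217, from 128 to 122 and, on the minus strand, from 50 to 44 bases before the start. The GC content of these windows was 58.8% for Mt1 and 67.6% for Mt2. With the 50 bases after the start included, windows of 300 bases held 3 matches for Mt1 and 4 for Mt2, and at least 3 matches were present in 1.97% of all windows of that length. Slc30a1 had 1 match in 250 bases and Slc30a10 had 3, of which a pair lay on opposite strands of nearly the same bases. Slc39a8 and Slc39a5 had 2 windows each, of which 1 held a match, and Mtf1 had 0 matches.

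The same windows were searched for the STAT palindrome TTCNNNGAA, present in 7.02% of all windows of 250 bases, and for the antioxidant response element core TGACNNNGC, present in 10.2%. The STAT palindrome was in 0 of the 9 windows. The antioxidant response element core was found once each in the windows of Mt2, at TGACTCAGC from 79 to 71 bases before the start, of Slc30a1 and of 1 window of Slc39a8, and 2 matches were in 1 window of Slc39a5. A match describes letters in a window and is not a measured binding site.

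Genes whose pattern over the 7 samples was most like that of a member were ranked by the root mean square difference of log2 CPM, each gene centred on its own mean and with 0.5 CPM added. The closest to Mt1 were Cyp17a1 at 0.34, Reg3g at 0.52 and Sult1e1 at 0.66. Cyp17a1, a steroid hydroxylase, averaged 1.20 ± 0.25 CPM (SD, n = 4) in control mice and 229 ± 37 CPM (SD, n = 3) in LPS-treated mice. The closest to Mt2 were A2m at 0.30, Reg3g at 0.41 and Saa2 at 0.50. A2m, a protease inhibitor of plasma, averaged 1.43 ± 0.58 CPM (SD, n = 4) in control mice and 732 ± 84 CPM (SD, n = 3) in LPS-treated mice. Reg3g, a secreted lectin, stood at 0.0983 ± 0.0663 CPM (SD, n = 4) in control mice, under the floor, and at 171 ± 2 CPM (SD, n = 3) in LPS-treated mice. Sult1e1, an estrogen sulfotransferase, averaged 0.448 ± 0.279 CPM (SD, n = 4) in control mice. Levels this low are raised by the 0.5 CPM added, so the places of Reg3g and Sult1e1 depend on it. Mt2, at 1.67 CPM on average in control mice, A2m and Cyp17a1 were also low there, so their distances depend on the 0.5 CPM as well.

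The closest to Slc39a14 were Gm16573 at 0.08, Csf3 at 0.11 and Hapln4 at 0.12. Csf3, a growth factor of granulocytes, had no counts in control mice and 1.33 ± 0.17 CPM (SD, n = 3) in LPS-treated mice, so its place here comes from the 0.5 CPM added. Gm16573 is annotated as antisense in GENCODE M21, and since it is not given whether the counting used strand, its counts may include reads of the gene on the other strand. Hapln4 averaged 2.13 ± 0.36 CPM (SD, n = 4) in control mice and 9.35 ± 1.20 CPM (SD, n = 3) in LPS-treated mice. The closest to Slc30a10 were Klhl5 at 0.05, Iscu at 0.05 and Eif2s3y at 0.06.

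Slc39a14 and Slc39a8 also carry manganese and iron, and metallothioneins bind copper, so the genes of these metals were taken as lists. They too were chosen with earlier results of these data known, so their counts beside the shares over all genes are no independent test. Of 12 genes of iron and manganese transport, 5 were higher and 1 was lower in LPS-treated mice, against 13.3% and 13.0% of all genes tested, with a median log2 fold change of 0.08. Tfrc, the transferrin receptor, rose by 2.13 ± 0.18 (SE) on the log2 scale, with 11.1 ± 2.5 CPM (SD, n = 4) in control mice and 48.4 ± 3.7 CPM (SD, n = 3) in LPS-treated mice. Slc11a1, a metal carrier of phagocyte vesicles, rose by 2.18 ± 0.30 (SE), and Steap3, a ferrireductase, fell by 0.69 on the log2 scale with an SE of 0.16. Of 11 tested genes of copper handling, 3 were higher and 1 was lower, against the same shares of all genes, with a median of 0.15. The single fall in each list is near or under the share over all genes. Steap4, a metalloreductase, rose by 3.49 ± 0.27 (SE), and Cp, the copper-carrying ferroxidase ceruloplasmin, by 1.65 ± 0.21 (SE) on the log2 scale. Ccs, which delivers copper to superoxide dismutase, fell by 1.03 on the log2 scale with an SE of 0.15.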

How the data were processed

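Poly(A) RNA libraries that keep strand information were made from liver of 7 mice. The authors deposited raw counts of reads per gene, not normalized. The submitters' processing notes name cutadapt 1.9.1, HISAT2 2.2.1, HTSeq 0.6.1 and the build GRCm39. The annotation, the strand setting and how multi-mapping reads were handled are not given in the sources used here. Counts were filtered with filterByExpr, scaled by TMM and tested in R 4.3.3 with edgeR 4.0.16 (quasi-likelihood test, treatment as the only term, Benjamini-Hochberg adjustment over all genes tested). The SE of a log2 fold change was its size divided by the square root of F. Alternatives were DESeq2 1.42.0, other scaling, filters and thresholds, a replicate block, LPS replicates 2 and 3 summed, and leaving out each mouse. Methods were tested on simulated data. The members and lists were chosen with earlier results of these data known. Named genes were all members, every called gene of the other transporter and metallothionein lists, the 3 called genes with the smallest p in each further list, and the 3 genes most like Mt1, Mt2, Slc39a14 and Slc30a10. The genes of the glucocorticoid list that fell or did not pass are named as well. Cell type markers were counted as lists.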

Additional observations from a re-analysis of the deposited data

Results flagged for a closer look

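Of 40 results examined in the 4 control mice, 3 had a mouse far from the others of its group, where chance alone gives about 1 in 20. None of them was a metallothionein or a zinc transporter. Hpx, a heme-binding acute phase protein, was at 2592 CPM in control replicate 4 and between 3338 and 3464 CPM in the other control mice. Gclc, an enzyme of glutathione synthesis, was at 636 CPM in control replicate 3 and between 336 and 382 CPM in the others. Reg3g was at 0 CPM in control replicate 1 and between 0.122 and 0.145 CPM in the others, all of which lie at or under the floor of 3 counts.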

How the results depend on the processing

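Mt1, Mt2 and Slc39a14 kept their rise and their call in all 18 alternatives, with log2 fold changes from 7.28 to 7.85, from 8.82 to 9.17 and from 1.89 to 2.04. Of the 9 genes, the number lower was 2 without a scaling factor, 0 at an adjusted p below 0.01 and 0 with over 2-fold required, and it ranged from 0 to 2 when 1 mouse was left out, with 0 without LPS replicate 1 or 2 and 2 without control replicate 1 or 3. Over all genes, 1091 were higher and 993 lower at an adjusted p below 0.01, and 1068 and 1000 with over 2-fold required. The number lower ranged from 1146 to 1868 when 1 mouse was left out, with 1146 without LPS replicate 2 and 1159 without LPS replicate 3. The cause of these shifts was not tested. Without a scaling factor the median log2 fold change of all genes was -0.13 in place of -0.01. The difference in the share of Mt2 was 18.622 points with LPS replicates 2 and 3 summed (exact p = 0.0667) and ranged from 16.313 to 20.532 points when 1 mouse was left out, where the exact p of 0.0667 to 0.1 was the smallest those designs allow.

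With the replicate number as a replicate block, 3 of the 9 genes were higher and 1 lower, and 1647 and 1587 of all genes. Samples of the same number correlated at 0.20, -0.06 and 0.08, and samples of different numbers between -0.15 and 0.11. These values were not tested and are too few to show whether the numbers pair the mice. Low counts limit Slc39a5, Slc39a2 and, in control mice, Mt2. Slc39a5 had 15 alternatives and Slc39a2 had 14, because too few counts were left in the others. Slc39a2 had an adjusted p of 0.0676 in edgeR's quasi-likelihood test with Benjamini-Hochberg adjustment and the replicate block.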

Other observations

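Groups of genes known to respond to signals that also act on metallothionein genes were counted as lists in the same test, in which 13.3% of all genes tested were higher and 13.0% lower. All lists in this section were chosen with earlier results of these data known, so their counts beside these shares are no independent test. Of 14 genes responsive to IL-6 and STAT3, 13 were higher in LPS-treated mice and 1 did not pass the test, with a median log2 fold change of 2.55 against -0.01 over all genes tested. Lcn2, an iron-scavenging protein, rose by 9.73 ± 0.35 (SE), the acute phase protein gene Saa1 by 7.99 ± 0.40 (SE) and Hpx by 3.35 ± 0.22 (SE) on the log2 scale. Of 14 genes of a list around glucocorticoids, 9 were higher and 2 lower, with a median of 1.24. Tsc22d3, Nr3c1 and Errfi1 did not pass the test, and the lower genes were Dusp1 and Hsd11b1, so the list did not move as one. Dusp1 fell by 1.60 on the log2 scale with an SE of 0.23, and the log2 fold change of Tsc22d3 was -0.12 with an SE of 0.27. Fkbp5, a co-chaperone of the glucocorticoid receptor, rose by 3.90 ± 0.30 (SE) and Cdkn1a, a cell cycle inhibitor, by 3.67 ± 0.36 (SE) on the log2 scale. Hsd11b1, which regenerates active glucocorticoid, fell by 2.15 on the log2 scale with an SE of 0.16.

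A list around Nrf2, the transcription factor that binds antioxidant response elements, held its targets, its own gene Nfe2l2 and the gene of its inhibitor Keap1. Of 13 tested genes of this list, 2 were higher, close to the share over all genes, and 5 were lower, Nfe2l2 among them, with a median log2 fold change of -0.41. Hmox1, which degrades heme, rose by 3.45 ± 0.24 (SE) on the log2 scale. The glutathione transferase gene Gstm1 fell by 3.48 on the log2 scale with an SE of 0.18, and Gclc fell by 2.29 with an SE of 0.22. The relation of these lists to Mt1 and Mt2 was not tested.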
